A study of Arabidopsis thaliana with 14 samples.

Results

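The probe sets described here are those whose signal fell within 6 h of the transfer of Arabidopsis thaliana roots to medium without iron and was still low at 12 h and 24 h. Members were required to have a mean signal of 100 or more on standard medium, and means at 6, 12 and 24 h that each lay at least 0.8 below standard on the log2(signal + 16) scale. In addition, both arrays of each of these times had to lie below both standard arrays. Of the 22746 probe sets other than controls, 105 met these numeric terms. Of these 105, the 7 for SWEET11, XTH26, EXPA7, EXPA18, AT4G08410, AT1G34510 and AT1G05700 were left out by name, which leaves 98 members. Of the members, 45 were paired with 1 gene in the platform annotation, 1 with several genes and 52 with none. The members were thus chosen by their signals at 6, 12 and 24 h against standard medium, and these differences are given as a description without a test.

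RNA from whole seedling roots of the Columbia ecotype was hybridised to Affymetrix expression arrays. Roots had been on medium without iron for 3, 6, 12, 24, 48 or 72 h, or on standard medium with Fe(III)-EDTA, with 2 arrays for each of the 7 groups. All seedlings grew for 5 days on standard medium with sucrose before the transfer, and medium without iron held 0.3 mM Ferrozine, a chelator that binds ferrous iron. Each array carries a pool of about 320 roots, and the labels call the 2 arrays of a group biological replicates. Seedlings of the standard group also changed plates, onto new standard medium for the last 3 h, which makes the 3 h group their only match in time since transfer. From 6 h on, time since transfer and time without iron cannot be told apart. The labels put every harvest within 3 h of the others on the sixth day, which leaves the age of the 48 h and 72 h roots unsettled.

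Iron enters Arabidopsis roots after the rhizosphere is acidified and ferric iron is reduced at the root surface, mostly in the epidermis and in root hairs. When iron is short, roots raise the uptake machinery and also change the shape and number of root hairs. Growing epidermal walls depend on secreted proteins such as class III peroxidases, hydroxyproline-rich extensins and enzymes that act on pectin.

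With 2 arrays in each group, precision is limited by their number. Signals were scaled by MAS5, and the array medians lay between 84.5 and 94.9. The 4 arrays of 48 h and 72 h stood apart from the other 10: the geometric mean of 18 hybridisation spike-in probe sets was 378 to 440 on these later arrays, against 2172 to 3232 on the earlier ones. Differences between 48 or 72 h and any earlier group cannot be told apart from this change of array set. In whole roots, fewer cells of a type and less RNA per cell cannot be told apart either. Root hair marker genes with a probe set (3 of 9) lay below standard at 6, 12 and 24 h. EXPA7 was at -0.89, -0.91 and -0.86, EXPA18 at -1.06, -1.13 and -1.39, and the peroxidase gene AT1G30870 at -0.78, -0.96 and -0.84. EXPA7 and EXPA18 met the rule's numeric terms, which fixed their falls. At 6 h EXPA7 and AT1G30870 were not called (limma adjusted p 0.0598 and 0.128). Each call of these 3 genes at 6, 12 and 24 h, except that of EXPA18 at 24 h, was lost with at least 1 array left out. Without standard replicate 1, EXPA7 was at -0.54 and -0.49 at 12 h and 24 h, and AT1G30870 at -0.68 and -0.55. EXPA18 was then at -0.85 at 6 h and -0.93 at 12 h. At 24 h AT1G30870 was also not called with quantile normalization (limma adjusted p 0.0521) or in a fit of the 10 earlier arrays alone (0.0622). Of other marker genes, GSO1 (endodermis) stood at -0.02, -0.29 and -0.27, and PRL (dividing cells) at -0.01, 0.16 and -0.06. RCA and LHCB4.1 (green tissue) lay above standard, at 0.46, 0.50 and 0.42 and at 0.27, 0.25 and 0.32, and neither was called at these times. The part of the root hair genes in the results was not tested.

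On standard medium the members spanned signals of 106 to 17735, with a median of 454. Of the 98, 30 lay over 1000 and 22 under 200. At 6, 12 and 24 h the median member stood at 44.4%, 38.8% and 36.2% of its standard signal. The lowest of these 3 times was 6 h for 14 members, 12 h for 38 and 24 h for 46. Only 53 members had fallen by at least 1 on the log2 scale at all 3 times. Just inside the limit of 0.8 were AT4G23510, 264144_at and AT2G37820, with smallest falls of -0.80 each. Just outside were 256751_at at -0.78, AT1G30870 at -0.78 and AT2G27660 at -0.78.

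The rule did not use the 3 h, 48 h and 72 h arrays, although comparisons of these times with standard share the 2 standard arrays with it. At 3 h the median member stood at 68.3% of its standard signal, a log2 difference of -0.53, against 0.01 over all 13648 probe sets tested. Both 3 h arrays lay below both standard arrays for 74 of the 98 members, beside 15.8% of all probe sets tested, and both lay above for 0 members, beside 17.9%. By limma with Benjamini-Hochberg adjustment 0.00% of probe sets were called lower at 3 h. Without adjustment, 45 of the 92 tested members were lower at a p under 0.05, beside 3.22% of all probe sets. Members were chosen for lying below these same standard arrays, which favours standard values that are high by chance. Probe sets as a whole were not so chosen, and the count of 45 therefore cannot show a fall by 3 h. The other comparisons with standard at 3, 48 and 72 h carry the same limit. At 48 h and 72 h the medians were 32.8% and 31.8% of standard, or -1.58 and -1.55 on the log2 scale, against 0.06 and 0.07 over all probe sets tested. Both arrays lay below both standard arrays for 86 members at 48 h, beside 31.3% of all probe sets, and for 86 at 72 h, beside 31.8%. Both lay above for 5 members at 48 h, beside 36.7%, and for 6 at 72 h, beside 37.7%. At both 48 h and 72 h, 84 members lay below both standard arrays, and 65 did so at all 6 times. The rule had fixed this position for every member at the times other than 3, 48 and 72 h. For neither count was the share of all probe sets computed.

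**Figure D1:**
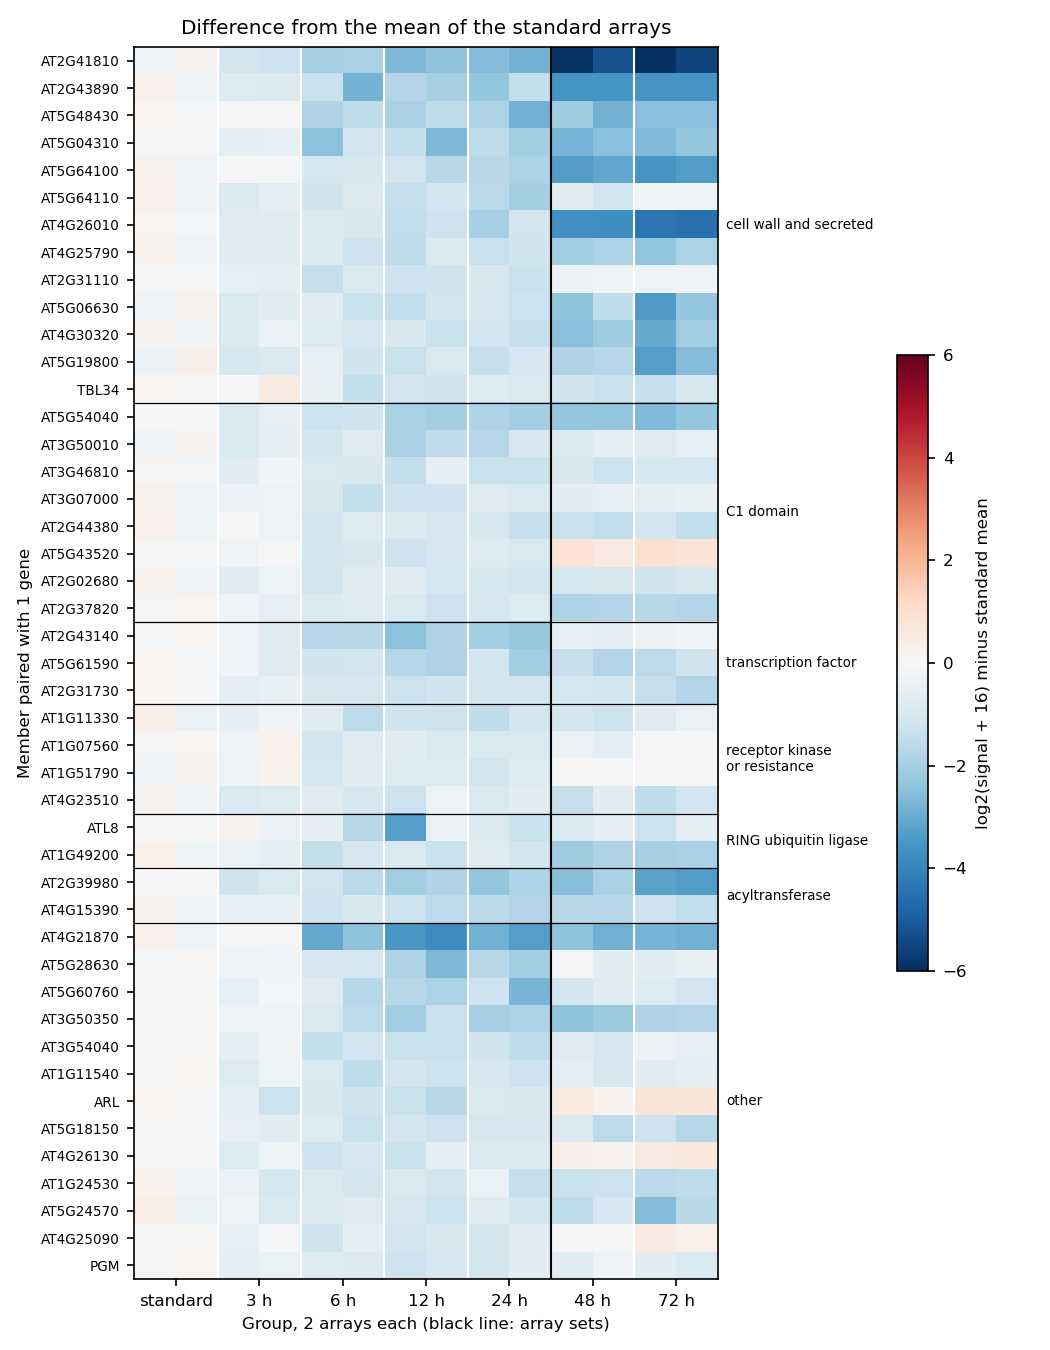
Log2(signal + 16) relative to the standard mean for the 45 members paired with 1 gene, grouped by role, with 1 column per array and a black line between the array sets. Blue is below and red above the standard mean; the 6, 12 and 24 h columns chose the members, and the rows of ARL, AT5G43520 and AT4G26130 turn red at 48 h and 72 h.

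Tests set 48 h and 72 h against 3 h, and 72 h against 48 h, and none of the arrays compared was behind the choice. Their standard errors still came from a fit of all 14 arrays, which include those behind the choice. The filter on low signals passed 92 members. The 6 that did not pass were AT2G43890, AT5G04310, AT2G39980, 266765_at, 263959_at and 255105_at, and these were not tested. Between 48 h and 3 h, limma with Benjamini-Hochberg adjustment called 55 of the 92 lower, beside 15.9% of all probe sets tested, and 5 higher, beside 14.6%. The median difference of these members was -0.96, against 0.04 over all. Between 72 h and 3 h, 54 were called lower, beside 17.8%, and 7 higher, beside 17.4%, with a median of -0.94 against 0.05 over all. Of the 92, 49 were lower at both times than at 3 h, 5 were higher at both and 25 were called at neither. Shares of all probe sets were not computed for these joint counts. Both comparisons cross the array sets and share the 3 h arrays.

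The 48 h and 72 h arrays belong to the same set. Between these times limma called 0 of the 92 members after adjustment, beside 0.00733% of all probe sets called lower and 0.00733% called higher. Without adjustment, 18 members were lower at a p under 0.05, beside 2.89% of all probe sets, and 6 higher, beside 1.27%, and the median difference was 0.00. When the fit was made on these 4 arrays alone, 7 members were called, of which 5 were lower, beside 0.205% of all probe sets, and 2 higher, beside 0.169%. With a pseudocount of 1 in place of 16, 1 member (254044_at) was called lower, beside 0.0953% of all probe sets.

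Proteins of the cell wall and the secretory route made up the largest named group, with 13 members, of which 11 were tested. Of these 11, 8 were lower at 48 h than at 3 h, beside 55 of all 92 tested members and 15.9% of all probe sets. At 72 h against 3 h, 9 were lower, beside 54 of the 92 and 17.8% of all probe sets, and 0 were higher at either time. Relative to standard, the group's median difference was -0.72 at 3 h, -2.33 at 48 h and -2.57 at 72 h. These groupings were made after the values had been seen.

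AT2G41810 encodes a protein of the DUF642 family, whose members are found in cell walls. Its signals were 1007 and 1273 on standard medium, 516 and 470.1 at 3 h, 274 and 281 at 6 h, 159.6 and 196 at 12 h, 175 and 144 at 24 h, 3.09 and 15.2 at 48 h, and 0.999 and 8.15 at 72 h. Every iron-deficient array lay below both standard arrays, and the 48 h and 72 h arrays held the lowest values, below the level of 49.6 that the filter set for mean signals. The difference was -4.38 at 48 h against 3 h (SE 0.25, limma adjusted p 1.31e-10) and -4.65 at 72 h against 3 h (adjusted p 3.76e-11). Of the 9 DUF642 genes listed, 7 had probe sets and 6 were tested. By limma, 0.579%, 1.56% and 2.01% of all probe sets were called lower at 6, 12 and 24 h, and 0.366%, 1.07% and 1.61% higher. None of the other 5 was called at these times, and the neighbouring locus AT2G41800 stood at 0.29, 0.09 and 0.20 against standard. Against 3 h, 2 of these 5 were lower at 48 h, beside 15.9% of all probe sets, and 3 at 72 h, beside 17.8%. AT2G41800 was -1.16 at 48 h (limma adjusted p 5.10e-05) and -1.29 at 72 h (adjusted p 1.16e-05), and AT4G32460 was -0.86 (0.00817) and -0.68 (0.0274). AT1G29980 was called only at 72 h, at -0.60 (adjusted p 0.0262).

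AT5G48430 encodes an aspartyl protease family protein of the kind found outside the cell. Its signals were 5429.8 and 4604 on standard medium, 5284 and 5204 at 3 h, 1416 and 1722 at 6 h, 1301 and 1720.1 at 12 h, 1356 and 664 at 24 h, 1118 and 686 at 48 h, and 872 and 873 at 72 h. At 3 h its arrays fell among the standard arrays, and from 6 h on every array lay far below them. Its difference at 48 h against 3 h was -2.56 (SE 0.26, limma adjusted p 2.14e-07). Its listed relatives AT5G19110 and AT5G19120 were called at none of 6, 12 and 24 h, with differences of -0.68, -0.70 and -0.35 and of -0.55, -0.50 and -0.38. Against 3 h, AT5G19110 was not called at 48 h (-0.75, limma adjusted p 0.15) and was lower at 72 h (-1.39, adjusted p 0.00757). AT5G19120 was called at neither time, at -0.20 (limma adjusted p 0.496) and -0.18 (0.541).

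Enzymes that act on pectin had low signals. AT2G43890, a pectin lyase fold protein, had signals of 241 and 158 on standard medium, 103 and 99.4 at 3 h, 67.7 and 13.9 at 6 h, 46.4 and 36.7 at 12 h, 26.3 and 62.5 at 24 h, 1.53 and 1.69 at 48 h, and 2.43 and 1.92 at 72 h. AT5G04310, a pectate lyase family protein, had signals of 162 and 162 on standard medium, 104 and 111 at 3 h, 16.1 and 62.9 at 6 h, 49.8 and 11.7 at 12 h, 46.0 and 27.7 at 24 h, 9.42 and 15.2 at 48 h, and 12.8 and 19.2 at 72 h. In both, every array from 3 h on lay below both standard arrays, and the 48 h and 72 h arrays held the lowest values in AT2G43890 but overlapped those of 6 h and 12 h in AT5G04310. The mean of each over all arrays was too low to pass the filter.

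Class III peroxidases, secreted enzymes that use hydrogen peroxide to cross-link wall polymers, contributed AT5G64100, AT5G64110 and AT4G26010. AT5G64100 was the brightest named member, with signals of 20326 and 15145 on standard medium, 17032 and 16032 at 3 h, 8536 and 9138 at 6 h, 8244 and 5602 at 12 h, 5515 and 4649 at 24 h, 1689 and 2009 at 48 h, and 1507 and 1725 at 72 h. Its 3 h arrays lay between the standard arrays, and each later time was lower than those. It was -3.15 at 48 h against 3 h (SE 0.19, limma adjusted p 1.85e-10). AT5G64110, the adjacent locus, had signals of 563 and 379 on standard medium, 243 and 309 at 3 h, 189.7 and 249.8 at 6 h, 167 and 199 at 12 h, 139.8 and 100.5 at 24 h, 296 and 202 at 48 h, and 416 and 378 at 72 h. Its 48 h and 72 h arrays were not called against 3 h, at -0.15 (limma adjusted p 0.679) and 0.51 (adjusted p 0.106). AT4G26010 had signals of 6262 and 5208 on standard medium, 3351 and 3409.7 at 3 h, 3109 and 2894 at 6 h, 2045 and 2396 at 12 h, 1434 and 2615 at 24 h, 451 and 427 at 48 h, and 261 and 238 at 72 h, and the 48 h arrays lay far below both 3 h arrays. Its difference at 48 h against 3 h was -2.90 (limma adjusted p 2.39e-09).

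**Figure D2:**
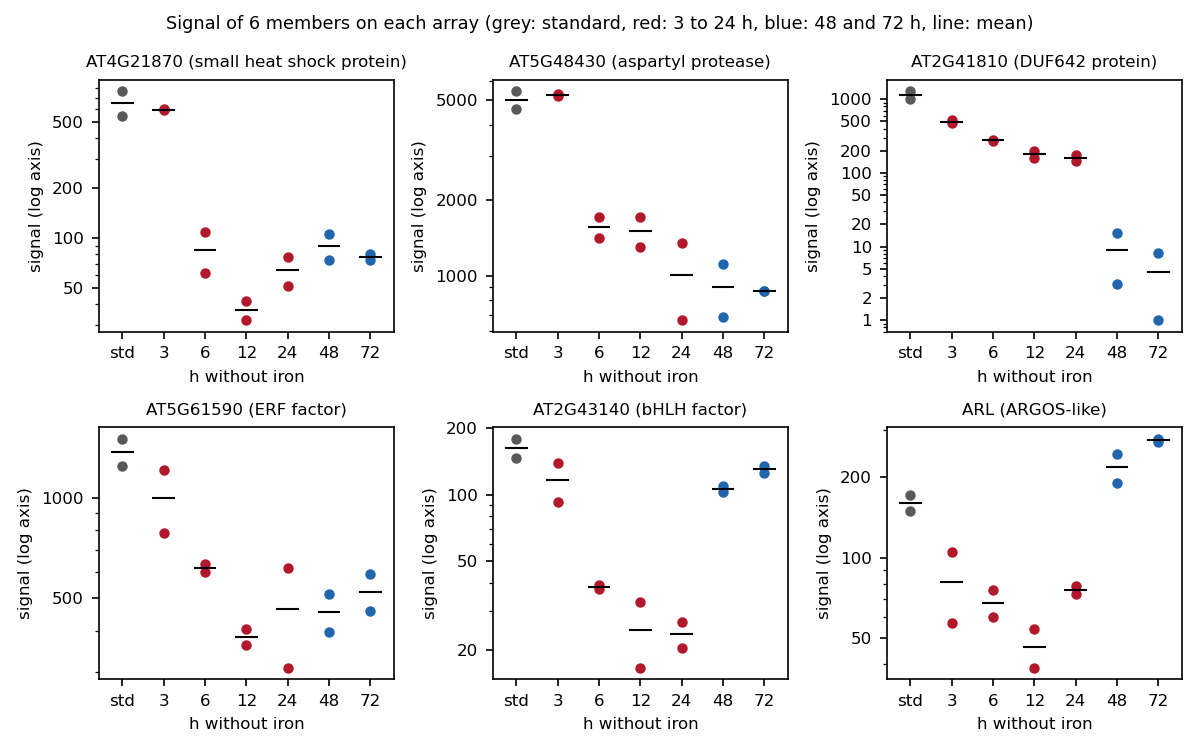
Signal on a log axis, by time, for 6 members, with 1 point per array. AT2G41810 is lowest at 48 h and 72 h, AT4G21870, AT5G48430 and AT5G61590 stay low there, and AT2G43140 and ARL lie well above their values at 6, 12 and 24 h.

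Other members of the cell wall and secretory route group were the CAP family proteins AT4G25790 and AT4G30320, the extensin-like AT5G06630 and the hydroxyproline-rich AT5G19800. The group also held TBL34 and AT2G31110 (TBL40), of the family of wall polysaccharide acetyltransferases. AT4G25790 was -1.27 at 48 h against 3 h (limma adjusted p 0.000264) and AT4G30320 was -1.68 (adjusted p 9.12e-05). AT5G06630 stood at -1.17 (adjusted p 0.00601), from a probe set that may also bind related transcripts. AT5G19800 missed the threshold at 48 h, at -0.79 (adjusted p 0.0576), and was lower at 72 h, at -1.98 (adjusted p 4.32e-05). Of the acetyltransferase relatives, TBL34 was -1.49 at 48 h against 3 h (limma adjusted p 0.000653), and AT2G31110 was not called, at 0.23 (limma adjusted p 0.432). The difference between them was not tested.

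AT4G21870, a small heat shock protein, had the largest mean fall of the named members. Its signals were 767 and 544 on standard medium, 597 and 595 at 3 h, 61.7 and 108 at 6 h, 41.9 and 32.0 at 12 h, 77.5 and 51.2 at 24 h, 106 and 74.3 at 48 h, and 80.0 and 74.2 at 72 h. The 3 h arrays lay within the range of the standard arrays, and no array from 6 h on came near either group. It was -2.54 at 48 h against 3 h (SE 0.27, limma adjusted p 3.68e-07). Small heat shock proteins bind unfolding proteins. Of the 17 listed genes 10 had probe sets and 5 were tested, and the other 4 tested were called lower at none of 6, 12 and 24 h. Among these, AT5G51440 was higher at 24 h by 0.99 (limma adjusted p 0.00911), beside 1.61% of all probe sets called higher, a call lost without standard replicate 2 (adjusted p 0.0911), without 24 h replicate 2 (0.186) or in a fit of the 10 earlier arrays alone (0.0806). Against 3 h it was higher by 2.38 at 48 h (limma adjusted p 5.88e-08) and by 3.19 at 72 h (adjusted p 7.42e-10), and the other 3 were called at neither time.

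Of the 3 transcription factors, AT5G61590 (DEWAX) is an ERF factor known as a repressor of wax genes in leaves and stems. It had signals of 1507 and 1248 on standard medium, 1214 and 787 at 3 h, 598 and 635 at 6 h, 404 and 363 at 12 h, 617 and 309.7 at 24 h, 514 and 396 at 48 h, and 458 and 589.6 at 72 h. All arrays from 6 h on lay below both 3 h arrays, and it was -1.09 at 48 h against 3 h (SE 0.26, limma adjusted p 0.00282). This call was lost without 3 h replicate 1 (adjusted p 0.0686) or 48 h replicate 2 (0.0502), and that at 72 h without 3 h replicate 1 (0.163) or 72 h replicate 1 (0.113). Its relative AT5G07580, no member, was called lower at 12 h and 24 h, at -0.93 (limma adjusted p 0.0188, beside 1.56% of all probe sets) and -1.04 (0.00508, beside 2.01%). The 12 h call was lost without standard replicate 1 (0.105), standard replicate 2 (0.0729) or 12 h replicate 2 (0.129), and the 24 h call without 24 h replicate 2 (0.052). Against 3 h it was -0.90 at 48 h (limma adjusted p 0.0027) and -0.59 at 72 h (adjusted p 0.0345). The bHLH factor AT2G43140 had signals of 146 and 178 on standard medium, 139 and 92.9 at 3 h, 37.4 and 39.3 at 6 h, 16.6 and 32.7 at 12 h, 26.6 and 20.4 at 24 h, 109 and 102 at 48 h, and 125 and 135 at 72 h. Its 48 h and 72 h arrays lay between the 3 h arrays, at -0.10 (limma adjusted p 0.836) and 0.17 (0.683). The other bHLH factor, AT2G31730, was not called at 48 h (-0.54, limma adjusted p 0.0739) and was lower at 72 h (-1.05, 0.00106).

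Proteins with C1 domains, cysteine-rich zinc-binding folds found in a large plant family, gave 8 members: AT5G54040, AT5G43520, AT2G44380, AT3G50010, AT3G46810, AT3G07000, AT2G02680 and AT2G37820. At 48 h against 3 h, 3 of the 8 were lower, beside 15.9% of all probe sets, and 1 higher, beside 14.6%. At 72 h against 3 h, 3 were lower, beside 17.8%, and 1 higher, beside 17.4%. AT5G54040 had signals of 352 and 353 on standard medium, 186 and 242 at 3 h, 134 and 143 at 6 h, 78.8 and 75.0 at 12 h, 84.5 and 72.4 at 24 h, 58.1 and 54.6 at 48 h, and 42.2 and 58.7 at 72 h. At each later time its arrays lay below both 3 h arrays, and it was -1.66 at 48 h against 3 h (SE 0.23, limma adjusted p 1.29e-05). AT2G44380 was -1.26 at 48 h against 3 h (limma adjusted p 6.95e-05) and AT2G37820 was -1.44 (adjusted p 0.000433). AT3G50010, AT3G46810, AT3G07000 and AT2G02680 were called at neither time, with differences from -0.71 to 0.03 at 48 h.

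AT5G43520 went the other way at the later times. Its signals were 1137 and 1195 on standard medium, 1017 and 1172 at 3 h, 533 and 591 at 6 h, 476 and 567 at 12 h, 658 and 611 at 24 h, 2122 and 1675 at 48 h, and 2297 and 2027 at 72 h. The 48 h and 72 h arrays lay above all standard and 3 h arrays, and those of 6, 12 and 24 h below. It was 0.78 higher at 48 h than at 3 h (SE 0.17, limma adjusted p 0.0015).

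Among members of other roles, ARL (AT2G44080), a regulator of organ size, had signals of 172 and 149 on standard medium, 106 and 57.0 at 3 h, 75.5 and 60.1 at 6 h, 54.0 and 38.8 at 12 h, 78.6 and 73.4 at 24 h, 246 and 191 at 48 h, and 279 and 271 at 72 h. Both later times lay above both standard arrays, and it was 1.30 higher at 48 h than at 3 h (SE 0.26, limma adjusted p 0.000688). AT4G26130 was higher by 0.85 at 48 h (limma adjusted p 0.00712), and the NADPH oxidase gene AT4G25090 only at 72 h, by 0.71 (adjusted p 0.0155). The largest difference above standard belonged to 253660_at, which the platform table pairs with no gene, with signals of 308 and 478 on standard medium, 201 and 381 at 3 h, 243 and 178 at 6 h, 164 and 180.2 at 12 h, 200.4 and 189.7 at 24 h, 1363 and 1219 at 48 h, and 2114 and 2466 at 72 h. Its 48 h and 72 h arrays lay far above every earlier one, and it was 2.15 at 48 h against 3 h (SE 0.25, limma adjusted p 1.40e-06).

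Both acyltransferases of the HXXXD family were low at late times. AT4G15390 was -1.20 at 48 h against 3 h (limma adjusted p 1.14e-05). AT2G39980, too low to be tested, had signals of 191 and 179 on standard medium, 70.9 and 89.6 at 3 h, 75.0 and 50.2 at 6 h, 31.2 and 42.2 at 12 h, 23.6 and 37.4 at 24 h, 18.6 and 36.9 at 48 h, and 5.55 and 3.75 at 72 h. All its iron-deficient arrays lay below both standard arrays. The RING-type ubiquitin ligase family gave AT1G49200, at -1.53 at 48 h against 3 h (limma adjusted p 0.000806), and ATL8, which was not called (-0.66, SE 0.57, adjusted p 0.417).

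Of the 12 named members with the largest mean falls, 3 more remain. AT5G28630, a glycine-rich protein, had signals of 207 and 223 on standard medium, 174 and 193 at 3 h, 98.2 and 93.9 at 6 h, 47.6 and 19.2 at 12 h, 56.1 and 39.3 at 24 h, 194 and 133 at 48 h, and 126 and 155 at 72 h. Its 48 h arrays overlapped those of 3 h, at -0.17 (limma adjusted p 0.695). AT5G60760, a P-loop nucleoside triphosphate hydrolase family protein, had signals of 191 and 204 on standard medium, 137 and 187 at 3 h, 107 and 48.6 at 6 h, 52.1 and 41.4 at 12 h, 75.5 and 14.9 at 24 h, 85.0 and 109 at 48 h, and 106 and 81.4 at 72 h, and was not called at -0.64 (limma adjusted p 0.222). AT3G50350 had signals of 779 and 882 on standard medium, 689 and 681 at 3 h, 433 and 268 at 6 h, 184 and 318 at 12 h, 193 and 213 at 24 h, 144 and 163 at 48 h, and 216 and 235 at 72 h, and all its later arrays lay below both 3 h arrays, at -2.05 (limma adjusted p 1.34e-06).

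None of the 4 receptor kinases and resistance proteins, AT1G51790, AT1G07560, AT1G11330 and AT4G23510, was called at 48 h or 72 h against 3 h. Of all probe sets, 15.9% were called lower and 14.6% higher at 48 h, and 17.8% and 17.4% at 72 h. AT1G11330, an S-locus lectin kinase, came closest, at -0.85 at 48 h (limma adjusted p 0.0504), and the leucine-rich repeat kinases AT1G51790 and AT1G07560 stood at 0.02 and -0.46. Both of these kinases were near standard at 3 h, at -0.03 and -0.02, while AT4G23510, a TIR-NBS-LRR protein, was at -0.87. The remaining named members were AT1G11540, PGM (AT1G78050), the WD40 repeat protein AT1G24530, AT5G18150, AT5G24570 and AT3G54040, a PAR1 protein. The last was -0.50 at 48 h against 3 h (limma adjusted p 0.0344) and -0.03 at 72 h (0.915). AT5G18150 was lower at both times, at -0.63 (limma adjusted p 0.0445) and -0.90 (adjusted p 0.00438). AT1G24530 and AT5G24570 were called only at 72 h, at -0.86 (limma adjusted p 0.0196) and -1.53 (adjusted p 0.000744). AT1G11540 and PGM were called at neither time. The 53 members without a single gene had 50 tested, of which 37 were lower at 48 h than at 3 h, beside 15.9% of all probe sets, and 2 higher, beside 14.6%.

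**Figure D3:**
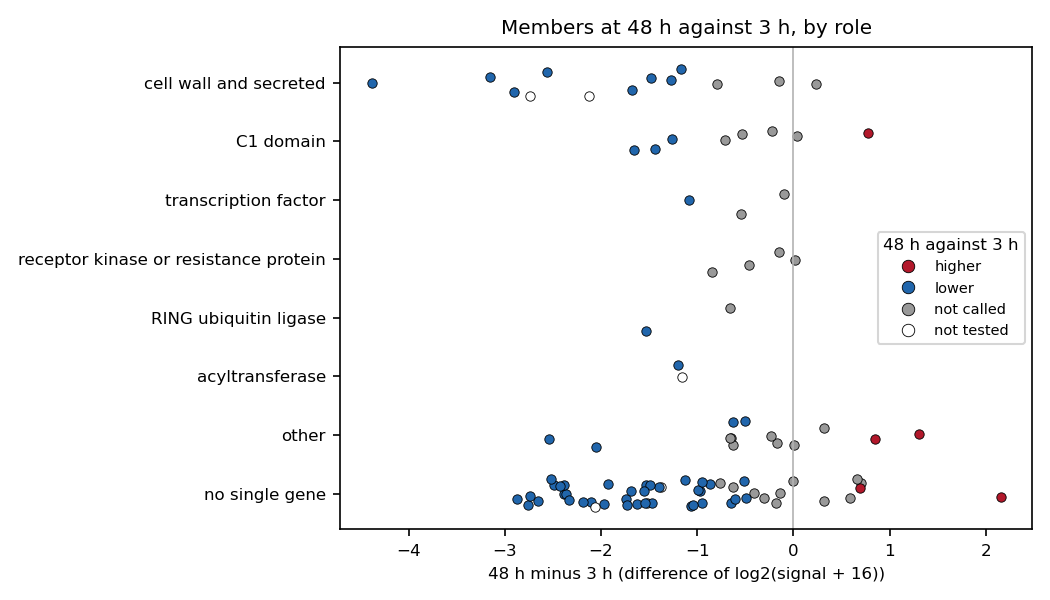
Log2 difference at 48 h against 3 h for each member, by role group. Points are single members, coloured by the limma call, and open points were not tested; cell wall and secreted members lie mostly below 0, and the C1 domain group holds members on both sides.

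Members that were already low at 3 h tended to be lower at 72 h than at 48 h, in 2 comparisons that share no array. The first of these uses the standard arrays, which also chose the members but not the probe sets tested as a whole. Of the 26 members at or under -0.8 at 3 h against standard, 20 were lower at 72 h than at 48 h, with a median of -0.61. The 37 between -0.8 and -0.4 had a median of 0.00, with 18 lower, and the 35 above -0.4 a median of 0.16, with 10 lower. These counts go by sign alone, and limma called 0 of the 92 tested members between 48 h and 72 h. Shares of all probe sets in the same ranges were not computed. Across the 98 members Pearson's r was 0.447 and Spearman's rho 0.465, against 0.0176 and -0.0082 across the 13648 probe sets tested. Probe sets are not independent replicates, and no p is given. Leaving out 1 array at a time gave r from 0.308, without standard replicate 1, to 0.500, without 48 h replicate 1. The root hair genes EXPA7, EXPA18 and AT1G30870 stood at -0.77, -0.95 and -0.60 at 3 h against standard, and at -0.69, -1.04 and -0.77 at 72 h against 48 h. None of these differences was called by limma (lowest adjusted p 0.0783). Of these genes, EXPA7 and EXPA18 had met the rule's numeric terms. The part of the root hair genes in this pattern was not tested.

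**Figure D4:**
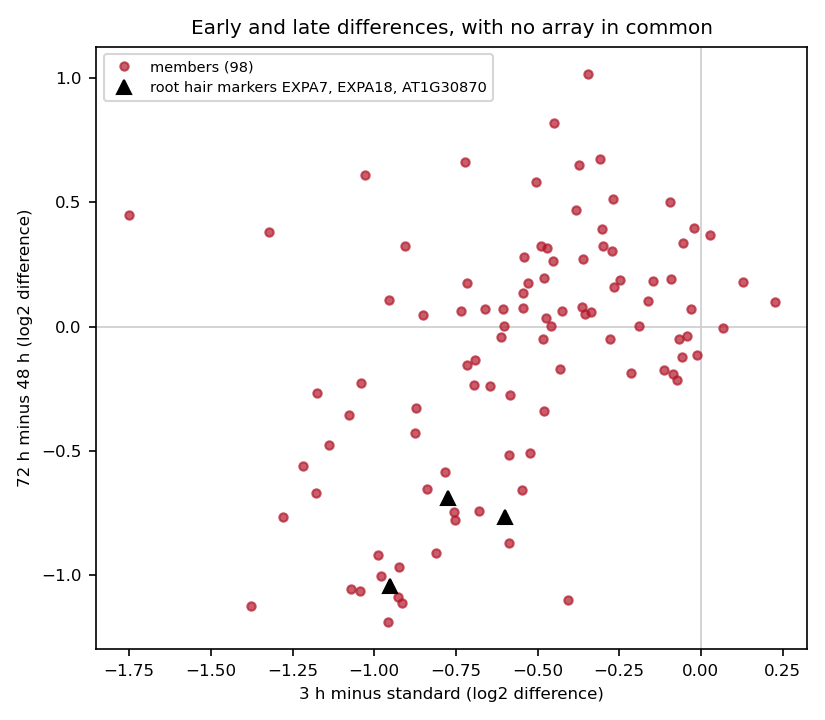
Each point is a member; the horizontal axis is the log2 difference of 3 h from standard and the vertical axis that of 72 h from 48 h. Members far to the left lie mostly below 0 on the vertical axis, and of the 35 members above -0.4 on the horizontal axis 10 lie below 0 on the vertical axis.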

How the data were processed

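RNA from roots was measured on 14 arrays in 7 groups of 2, grouped by the sample labels. The authors deposited linear probe set intensities, and MAS5 is the tool named in the submitters' processing notes; its version is not given in the sources used here. All columns were matched to samples. Of 22810 probe sets, 64 controls were left out. Values were taken as log2(signal + 16), the 40% with the lowest mean (a signal of 49.6) were removed, and 13648 entered a limma fit (limma 3.58.1, R 4.3.3) of group means with 7 residual degrees of freedom and a variance trend. Benjamini-Hochberg adjustment ran over all probe sets in each comparison, with calls at an adjusted p under 0.05. The fit was tested on simulated data.

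Members and lists were chosen with earlier results of these data known. Every member paired with 1 gene is named. Values in every array are given for the 12 with the largest mean falls, for listed members and for the 3 largest above standard; others shown were chosen after their values were seen. Names come from the platform annotation, updated through a RefSeq gene table. Promoter sequences were not analysed here. Replicate numbers did not pair the samples. Alternatives included pseudocounts of 1 and 64, median centring, quantile normalization, other filters, no trend, a robust fit, a fit of the compared array set alone, a replicate block and each array left out.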

Additional observations from a re-analysis of the deposited data

Results flagged for a closer look

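For 6 members both 72 h arrays lay above both standard arrays, beside 37.7% of all probe sets tested, while both 24 h arrays lay below them. The rule fixed the position at 24 h for every member. The difference between the times was not tested. It crosses the array sets and uses the standard arrays that also chose the members. At 72 h and at 24 h against standard, 253660_at stood at 2.52 and -0.92, AT5G43520 at 0.88 and -0.86, ARL at 0.72 and -0.94, AT4G26130 at 0.58 and -0.87, 265841_at at 0.51 and -1.04, and AT4G25090 at 0.41 and -0.92.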

How the results depend on the processing

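The number of members moved with the rule's inputs: 61 with a pseudocount of 64, and 86 to 159 with 1 array left out, the highest without standard replicate 2. With a pseudocount of 64 the median difference from standard was -1.24 at 48 h and -1.28 at 72 h. With 1 array left out, the medians ranged from -0.62 to -0.47 at 3 h, from -1.66 to -1.51 at 48 h and from -1.61 to -1.44 at 72 h. Members called numbered 50 to 65 at 48 h against 3 h, 54 to 63 at 72 h against 3 h and 0 to 0 at 72 h against 48 h. A fit of the 4 later arrays alone called 7 members between 72 h and 48 h, on fewer arrays, and a pseudocount of 1 called 1, 254044_at, at -1.17 (limma adjusted p 0.0423, beside 0.0953% of all probe sets called lower). With the replicate number as a block, 62, 63 and 0 members were called. Same-numbered arrays of the 21 pairs of groups correlated at -0.14 to 0.27, with 4 over 0.1. No direction of a called result turned. The counts that follow take each gene, comparison and setting once, so the same call can be counted under several arrays left out. For single genes, leaving out 1 array left 852 results on their side of the threshold, took 29 calls away and added 1, and other settings left 492, took 3 away and added 3. With 2 arrays a group, small differences could not be resolved.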

Other observations

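Among members with no single gene, 3 had mean falls as large as the leading named members. Probe set 260623_at stood at -1.88, -3.46 and -3.85 against standard at 6, 12 and 24 h, and was lower at 48 h than at 3 h by limma (-2.39, adjusted p 2.14e-05). Probe set 254107_at stood at -1.45, -2.70 and -2.33, and 254818_at at -1.46, -1.88 and -2.62; at 48 h against 3 h they were at -2.36 and -2.66. The green tissue genes RCA and LHCB4.1 were lower at 48 h than at 3 h by limma, at -2.58 and -1.94, beside 15.9% of all probe sets. So were the root hair genes EXPA7, EXPA18 and AT1G30870, at -1.61, -1.88 and -1.39, and the dividing cell gene PRL, at -0.55. GSO1 (endodermis) was not called, at 0.34. These comparisons cross the array sets.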
